A study of Mus musculus with 16 samples.

Results

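The 10 genes described here encode steps of glycolysis from glucose uptake to lactate: the glucose transporter *Slc2a1*, the hexokinases *Hk1*, *Hk2* and *Hk3*, the phosphofructokinase subunits *Pfkl* and *Pfkp*, the regulatory enzyme *Pfkfb3*, aldolase *Aldoa*, phosphoglycerate kinase *Pgk1* and lactate dehydrogenase *Ldha*. They were taken by symbol from a table of 23356 genes, and all 10 were found. Glycolysis splits glucose into pyruvate in the cytosol and yields ATP without oxygen. Transport, hexokinase and phosphofructokinase are its main points of control. Dendritic cells are known to raise glycolysis when innate receptors are triggered, and hypoxia-inducible factors (HIFs) are known activators of many of these genes.

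RNA-seq was performed on bone marrow-derived dendritic cells (BMDCs) to ask which responses to the bacterial second messenger c-di-GMP need the adaptor STING, encoded by *Tmem173*, or the transcription factors IRF1, IRF3 and IRF7. BMDCs of C57BL/6 background were grown from mice that were wild-type or lacked *Tmem173* (*Tmem173*-/-), *Irf1* (*Irf1*-/-) or both *Irf3* and *Irf7* (*Irf3/7*-/-), and all were cultured for 6 days with GM-CSF and IL-4, each at 10 ng/ml. Cells of each genotype were then left untreated or given c-di-GMP for 18 h, at 25 μg/ml according to the labels. The study's text names a higher dose for this RNA-seq, and which was used is not known here. There were 2 listed samples in each of 8 conditions, 16 in all, which the authors had combined into 1 value per gene and condition. The deletions are carried by every cell of the animal, the cells were the floating and loosely attached cells of a mixed culture, and the study's methods describe its mice as sex-matched and young, without an age for each group.

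Each value is an FPKM, the number of fragments of a gene scaled by transcript length and by library size, and carries the authors' interval. No value per sample was used, so no test over replicates could be made and the spread between cultures is unknown. For the 10 genes, the distance from an FPKM to either bound of its interval was 22.4% to 28.5% of the FPKM, with a median of 25.0%. Genes were called higher or lower if the change was more than 2-fold on the log2(FPKM + 0.1) scale, the intervals did not overlap and it reached 1 FPKM in either condition. All 10 passed that minimum in every comparison, and the standard errors (SE) given are derived from the intervals, not from replicates. Sequencing depth cannot be read from FPKM.

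The targeted genes were lower in their own knockouts, with exceptions. In *Tmem173*-/- BMDCs, *Tmem173* was at 8.97 FPKM untreated and 7.49 FPKM treated, where wild-type BMDCs had 103 and 118 FPKM. *Irf1* was at 25.9 and 116 FPKM in *Irf1*-/- BMDCs, against 149 and 245 FPKM. Low *Irf1* was not particular to that knockout, since *Tmem173*-/- BMDCs had 24.1 FPKM untreated and 23.3 FPKM treated. *Irf3* was at 7.74 and 20.2 FPKM in *Irf3/7*-/- BMDCs, the treated value lying above the 15.8 FPKM of treated wild-type BMDCs, while *Irf7* was at 1.07 and 4.97 FPKM, against 15.2 and 687 FPKM. Which exons those reads cover was not tested. The RNA of cell type markers also differed between genotypes. The summed FPKM of 7 dendritic cell markers lay between 4245 and 6064 in all 8 conditions, but most of each sum was *Cd74* (3336 to 4983 FPKM). Of the others, *H2-Ab1* ranged from 278 to 890 FPKM, *Itgax* from 135 to 369 FPKM and *Ciita* from 6.75 to 38.5 FPKM. *Flt3* stayed between 1.17 and 2.75 FPKM and *Cd209a* was listed at 0 in treated wild-type BMDCs. Neutrophil markers (5 of 6 in the table) summed to 19810 and 14380 FPKM in untreated and treated *Tmem173*-/- BMDCs and to between 1391 and 3996 FPKM elsewhere. In bulk RNA a smaller number of cells of a type and less RNA in each cell cannot be told apart.

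The sequences before the transcription starts are shown first, because ACGTG, a form of the core of the DNA element that HIFs bind, was searched in them. The other form of that core, GCGTG, was not searched, so a gene without ACGTG may still hold the core. They are from RefSeq (GRCm38.p6), which gave 15 windows for the 10 genes, each from 250 bases before to 50 bases after a start. The 250 bases before the start are printed 5′ to 3′ on the gene's strand, in lower case, with ACGTG or its reverse complement in capitals. *Slc2a1* (chr4:119108495-119108744, plus strand), *Hk2* (chr6:82774455-82774704, minus strand) and *Pfkfb3* (chr2:11553930-11554179 for the upstream and chr2:11502091-11502340 for the downstream start, minus strand) are the genes called higher in treated *Irf3/7*-/- BMDCs below. *Hk3* (chr13:55021386-55021635, minus strand) is the gene called higher in treated *Irf1*-/- BMDCs, and *Ldha* (chr7:46845554-46845803, plus strand) held the largest number of matches while its level moved least.
Slc2a1: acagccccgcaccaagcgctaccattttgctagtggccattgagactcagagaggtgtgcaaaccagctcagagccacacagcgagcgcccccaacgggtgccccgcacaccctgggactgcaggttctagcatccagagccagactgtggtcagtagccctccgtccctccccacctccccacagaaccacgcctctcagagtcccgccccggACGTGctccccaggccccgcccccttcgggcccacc
Hk2: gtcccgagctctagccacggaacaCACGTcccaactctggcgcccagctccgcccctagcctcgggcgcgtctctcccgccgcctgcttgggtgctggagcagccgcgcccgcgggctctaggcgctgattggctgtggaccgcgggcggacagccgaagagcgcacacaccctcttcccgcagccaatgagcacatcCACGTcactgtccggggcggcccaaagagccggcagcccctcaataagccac
Pfkfb3 upstream start: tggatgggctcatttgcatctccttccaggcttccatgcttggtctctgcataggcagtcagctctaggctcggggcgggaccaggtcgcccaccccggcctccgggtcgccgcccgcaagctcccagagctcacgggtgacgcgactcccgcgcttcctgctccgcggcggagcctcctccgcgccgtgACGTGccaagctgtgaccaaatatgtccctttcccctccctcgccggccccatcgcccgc
Pfkfb3 downstream start: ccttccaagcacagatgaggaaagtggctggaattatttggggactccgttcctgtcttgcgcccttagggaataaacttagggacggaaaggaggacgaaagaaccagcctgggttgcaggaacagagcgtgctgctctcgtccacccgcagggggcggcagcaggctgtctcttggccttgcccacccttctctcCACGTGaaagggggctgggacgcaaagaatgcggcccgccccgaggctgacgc
Hk3: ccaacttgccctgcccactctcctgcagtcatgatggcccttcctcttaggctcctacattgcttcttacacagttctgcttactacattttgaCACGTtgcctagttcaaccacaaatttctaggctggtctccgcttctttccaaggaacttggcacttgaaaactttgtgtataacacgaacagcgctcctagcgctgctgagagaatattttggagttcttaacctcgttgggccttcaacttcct
Ldha: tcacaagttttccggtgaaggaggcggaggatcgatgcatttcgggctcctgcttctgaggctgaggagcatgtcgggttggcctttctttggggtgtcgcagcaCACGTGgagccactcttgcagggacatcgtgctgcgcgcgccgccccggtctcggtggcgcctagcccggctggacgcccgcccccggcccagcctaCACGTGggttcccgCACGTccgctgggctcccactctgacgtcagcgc

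The match of *Slc2a1* began 36 bases before the start. Those of *Hk2* began 226 and 52 bases before it, and that of *Hk3* 156 bases before it. In *Pfkfb3* one lay 60 bases before the upstream start, and CACGTG lay 53 bases before the downstream start. CACGTG, an E-box, reads ACGTG on both strands and so counts as a pair of matches there. Across the members, ACGTG on either strand was found in 10 of 15 windows and in 8 of 10 genes, all but *Pfkl* and *Pfkp*; in *Hk1* it lay only after the start. Over all RefSeq promoters it was found in 19.6% of 32851 windows and 21.8% of 27025 genes. CACGTG was found in 2 members, *Ldha* and *Pfkfb3*, and in 8.09% of all genes. GAAANNGAA, part of the element that IRFs bind, was found in 1 member, *Pgk1*, and in 9.76% of all genes. A match of so few letters is a description of the sequence and not a binding site.

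The members differed widely in level, which FPKM allows to be compared because it is per length. *Aldoa*, *Ldha* and *Pgk1*, which act after the point where glucose is committed, had the 3 highest values in every condition, and *Pfkfb3* the lowest. By their intervals the 3 were apart from the next gene except in treated *Irf1*-/- BMDCs, where *Pgk1* and *Ldha* each overlapped *Pfkp*, while *Pfkfb3* overlapped its neighbour in 5 of the 8 conditions. In untreated wild-type BMDCs the order was *Aldoa* at 762 FPKM, *Ldha* at 639 FPKM, *Pgk1* at 526 FPKM, *Pfkp* at 222 FPKM, *Hk3* at 68.3 FPKM, *Slc2a1* at 67.8 FPKM, *Hk1* at 45.3 FPKM, *Pfkl* at 32.7 FPKM, *Hk2* at 26.8 FPKM and *Pfkfb3* at 9.58 FPKM. Neighbours in this order were apart by their intervals only between *Pgk1* and *Pfkp*, *Pfkp* and *Hk3*, and *Hk2* and *Pfkfb3*. Over the 8 conditions the highest value was 4.43 times the lowest for *Hk2*, 4.34 times for *Slc2a1*, 4.14 times for *Hk3* and 3.92 times for *Pfkfb3*, but only 1.90 times for *Pgk1*, 1.67 times for *Aldoa* and 1.29 times for *Ldha*. Treated *Irf3/7*-/- BMDCs held the highest value of 8 of the 10 genes, and treated *Irf1*-/- BMDCs the lowest value of 5. Some of these ranks were close, with overlapping intervals. *Ldha* was at 654 FPKM in treated and 653 FPKM in untreated *Irf3/7*-/- BMDCs. *Hk1* was at 75.3 FPKM in treated *Irf3/7*-/- and 68.6 FPKM in treated wild-type BMDCs, and *Aldoa* at 606 FPKM in treated *Irf1*-/- and 607 FPKM in treated *Tmem173*-/- BMDCs. Over 11811 genes with at least 1 FPKM in a condition, 15.1% had their highest value in treated *Irf3/7*-/- BMDCs and 10.9% their lowest in treated *Irf1*-/- BMDCs.

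**Figure D1:**
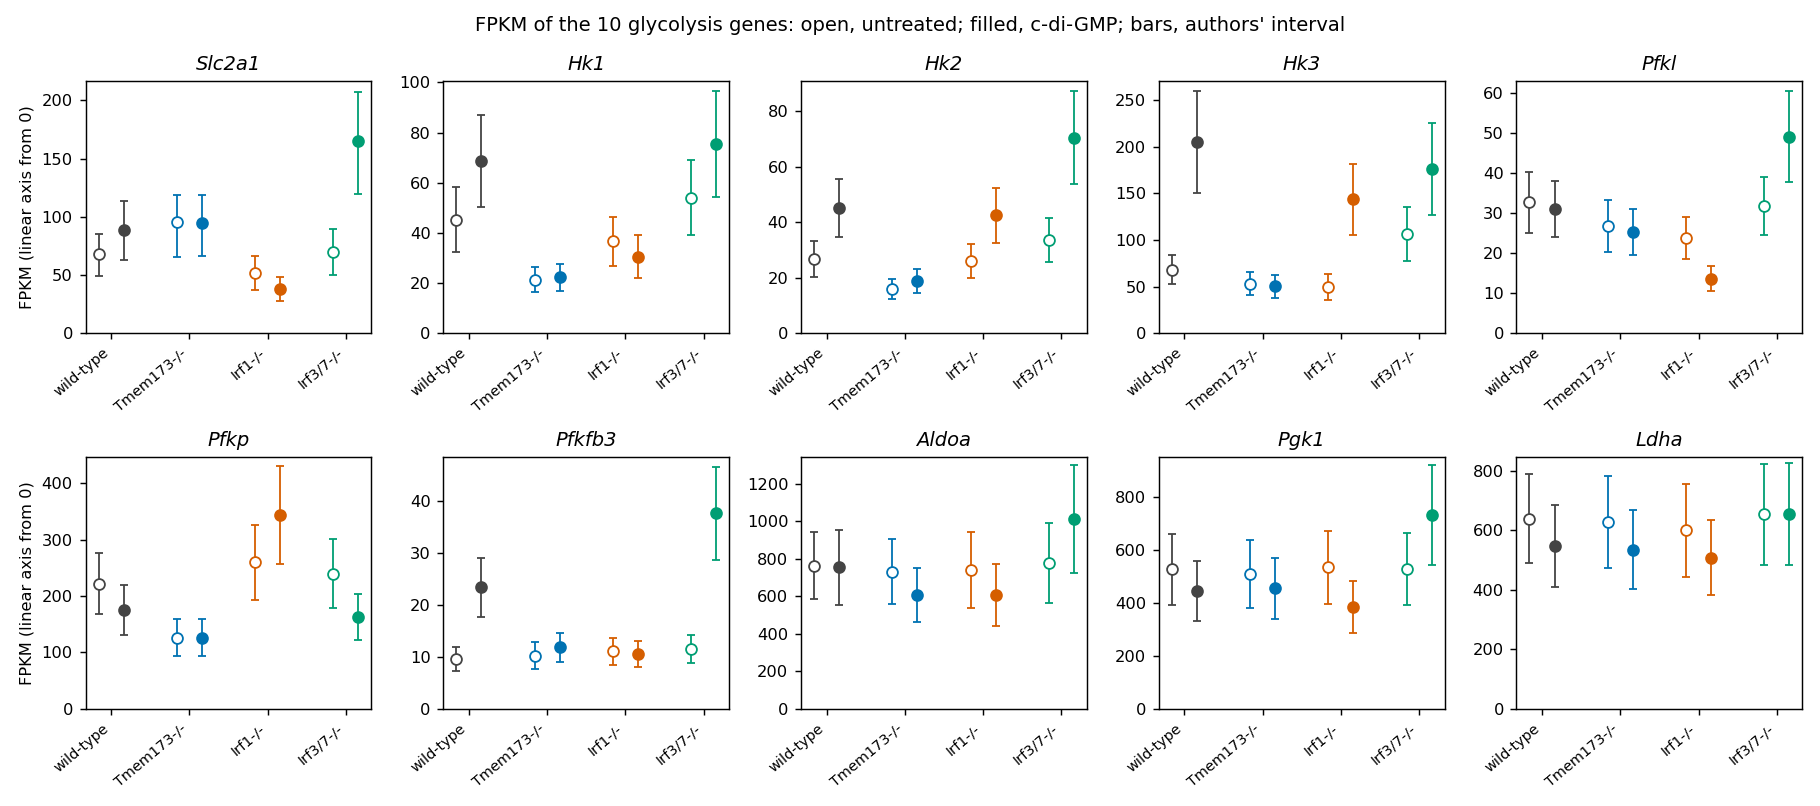
FPKM on a linear axis for each of the 10 glycolysis genes in the 4 genotypes; open points are untreated, filled points c-di-GMP treated, and bars the authors' interval. *Slc2a1* reached 166 FPKM and *Pfkfb3* 37.6 FPKM in treated *Irf3/7*-/- BMDCs, while *Ldha* stayed between 508 and 654 FPKM.

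In wild-type BMDCs, c-di-GMP raised 2 of the 10 genes: *Hk3* and *Pfkfb3*. *Hk3*, a hexokinase typical of myeloid cells, was at 68.3 FPKM (interval 52.3 to 84.3) without c-di-GMP and 205 FPKM (151 to 260) after it, so that its log2 change was 1.58 (SE 0.25). *Pfkfb3*, whose product makes the strongest activator of phosphofructokinase, was at 9.58 FPKM (7.35 to 11.8) and 23.4 FPKM (17.7 to 29.1), and its log2 change was 1.28 (SE 0.24). Of all genes tested in this comparison, 10.5% were called higher and 9.96% lower; none of the 10 was called lower. *Hk2*, the hexokinase that HIFs and growth signals induce, was at 26.8 and 45.1 FPKM with intervals apart but below 2-fold (log2 change 0.75). *Slc2a1* (67.8 and 88.4 FPKM) and *Hk1* (45.3 and 68.6 FPKM) had overlapping intervals. So did the genes of the later steps: *Aldoa* at 762 and 754 FPKM, *Pgk1* at 526 and 446 FPKM and *Ldha* at 639 and 547 FPKM. The phosphofructokinase subunits *Pfkl* (32.7 and 31.0 FPKM) and *Pfkp* (222 and 175 FPKM) also had overlapping intervals. The median log2 change was 0.18 over the 10 genes and 0.00 over all genes tested.

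In *Tmem173*-/- BMDCs none of the 10 genes was called. *Hk3* was at 53.1 FPKM untreated and 50.5 FPKM treated, *Pfkfb3* at 10.3 and 11.8 FPKM, *Hk2* at 15.9 and 18.8 FPKM, and *Slc2a1* at 95.4 and 94.3 FPKM. *Hk1* was at 21.3 and 22.2 FPKM, *Pfkl* at 26.8 and 25.3 FPKM, and *Pfkp* at 126 FPKM in both. The later enzymes were at 731 and 607 FPKM for *Aldoa*, 509 and 455 FPKM for *Pgk1*, and 626 and 534 FPKM for *Ldha*. Each pair of intervals overlapped. All log2 changes lay between -0.27 for *Aldoa* and 0.24 for *Hk2*. Here 0.046% of all genes were called higher and 0.0092% lower, so few genes of any kind were called. The log2 change of *Hk3* was 1.66 smaller than in wild-type BMDCs (difference -1.66, SE 0.35) and that of *Pfkfb3* 1.08 smaller (difference -1.08, SE 0.35).

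In *Irf1*-/- BMDCs 1 of the 10 genes was called higher, *Hk3*, at 49.5 FPKM (36.0 to 63.0) untreated and 144 FPKM (105 to 182) treated, for a log2 change of 1.54 (SE 0.28). In this comparison 9.67% of all genes were called higher and 7.81% lower. *Pfkfb3* was at 11.0 FPKM (8.42 to 13.7) and 10.5 FPKM (8.09 to 13.0) (log2 change -0.07), and was not called. *Hk2* was at 26.0 and 42.4 FPKM, with intervals apart and a log2 change of 0.70. *Pfkl*, the liver-type phosphofructokinase subunit, was at 23.7 FPKM (18.4 to 29.1) untreated and 13.6 FPKM (10.6 to 16.7) treated, again apart but less than 2-fold (log2 change -0.80). The others had overlapping intervals: *Slc2a1* was at 51.8 and 38.2 FPKM, *Hk1* at 36.6 and 30.4 FPKM, *Pfkp* at 260 and 343 FPKM, *Aldoa* at 740 and 606 FPKM, *Pgk1* at 534 and 385 FPKM and *Ldha* at 599 and 508 FPKM. The median log2 change over the 10 genes was -0.25, and 7 of the 10 were below 0.

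*Irf3/7*-/- BMDCs had 3 of the 10 called higher: *Slc2a1*, *Hk2* and *Pfkfb3*. *Slc2a1* was at 69.8 FPKM (50.3 to 89.1) untreated and 166 FPKM (119 to 208) treated (log2 change 1.25, SE 0.28). *Hk2* was at 33.4 FPKM (25.4 to 41.3) and 70.4 FPKM (53.7 to 87.1), with a log2 change of 1.07 (SE 0.24). *Pfkfb3* was at 11.6 FPKM (8.88 to 14.3) and 37.6 FPKM (28.6 to 46.6), with a log2 change of 1.69 (SE 0.24). Here 10.2% of all genes were called higher and 7.68% lower. *Hk3* was at 107 FPKM untreated and 176 FPKM treated, with overlapping intervals, and was not called. *Hk1* (54.0 and 75.3 FPKM), *Pfkl* (31.7 and 49.1 FPKM), *Aldoa* (775 and 1012 FPKM) and *Pgk1* (527 and 732 FPKM) were above their untreated values without reaching a call, while *Pfkp* was at 239 and 163 FPKM and *Ldha* at 653 and 654 FPKM. The log2 change was above 0 for 9 of the 10 genes, with a median of 0.55 against 0.00 over all genes tested. The NK cell markers (3 genes) summed to 319 FPKM untreated and 901 FPKM treated in these BMDCs, nearly all of it *Gzma*. In that list *Klrb1c* went the other way, from 4.05 to 0.618 FPKM, and *Ncr1* was at 0.397 and 0.661 FPKM. The T cell markers summed to 59.4 and 105 FPKM, and the basophil and mast cell markers to 91.7 and 140 FPKM. In wild-type BMDCs the same sums were 351 and 329, 45.3 and 32.0, and 39.3 and 42.9 FPKM. Their part in the changes was not tested.

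**Figure D2:**
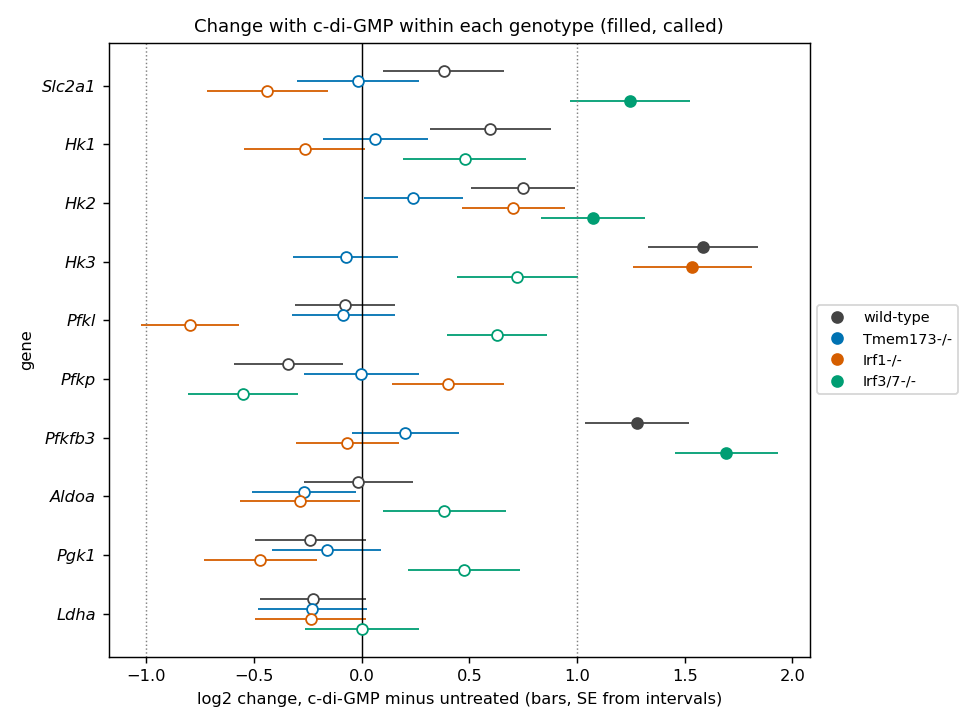
Log2 change with c-di-GMP (treated minus untreated, horizontal axis) of each of the 10 genes in the 4 genotypes; bars are SE from the authors' intervals, filled points are called and dotted lines mark 2-fold. *Hk3* is called in wild-type and *Irf1*-/- BMDCs, *Pfkfb3* in wild-type and *Irf3/7*-/- BMDCs, and no gene in *Tmem173*-/- BMDCs.

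*Hk3* and *Pfkfb3*, the genes raised in wild-type BMDCs, were then followed across the knockouts by the difference in log2 change from wild-type BMDCs. Both were picked for a high wild-type change, which is then subtracted, so that smaller changes in the knockouts are favoured by the choice. The log2 change of *Hk3* in *Irf1*-/- BMDCs differed from the wild-type change by less than its error (difference -0.05, SE 0.38), and in *Irf3/7*-/- BMDCs it was smaller (difference -0.86, SE 0.38). The log2 change of *Pfkfb3* was smaller in *Irf1*-/- BMDCs (difference -1.35, SE 0.34), and in *Irf3/7*-/- BMDCs the difference was 0.41 (SE 0.34). For *Slc2a1* the differences from the wild-type log2 change were -0.82 (SE 0.40) in *Irf1*-/- and 0.86 (SE 0.40) in *Irf3/7*-/- BMDCs. For *Pfkl* they were -0.72 (SE 0.33) and 0.71 (SE 0.33), for *Hk1* -0.86 (SE 0.40) and -0.12 (SE 0.40), and for *Pfkp* 0.74 (SE 0.36) and -0.21 (SE 0.36). The remaining 4 genes had differences of -0.27 to -0.01 without *Irf1* and of 0.23 to 0.71 without *Irf3* and *Irf7*. These differences share the wild-type conditions and were not tested over replicates.

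Treated knockout BMDCs were next set against treated wild-type BMDCs, which all of these comparisons share. In *Tmem173*-/- BMDCs the 3 hexokinases were lower. *Hk1*, the housekeeping hexokinase, was at 22.2 FPKM against 68.6 FPKM (log2 difference -1.62, SE 0.26), *Hk2* at 18.8 against 45.1 FPKM (-1.26, SE 0.23) and *Hk3* at 50.5 against 205 FPKM (-2.02, SE 0.26). *Pfkfb3*, at 11.8 against 23.4 FPKM, had intervals apart and lay just under 2-fold (log2 difference -0.98, and -1.03 when every condition was divided by its median over expressed genes). Of all genes tested, 12.9% were called higher and 13.5% lower, the members giving 0 and 3 of 10. The neutrophil markers were 14380 FPKM in sum in treated *Tmem173*-/- and 1890 FPKM in treated wild-type BMDCs. The sums of 6 macrophage markers were 283 and 129 FPKM and those of 5 T cell markers 0.869 and 32.0 FPKM, and the NK cell marker *Gzma* was listed at 0 in *Tmem173*-/- BMDCs. The part of these cells in the differences was not tested.

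For *Hk1* and *Hk2*, part of the hexokinase difference was present without c-di-GMP. *Hk1* of untreated *Tmem173*-/- BMDCs was at 21.3 FPKM (16.3 to 26.2), while untreated wild-type BMDCs had 45.3 FPKM (32.4 to 58.2). Its log2 difference was -1.09 (SE 0.26), the only call among the 10 genes. In this comparison 5.04% of all genes were called higher and 5.95% lower. *Hk2* (15.9 against 26.8 FPKM) and *Pfkp* (126 against 222 FPKM) were also below wild-type with intervals apart, at less than 2-fold. *Hk3* was at 53.1 against 68.3 FPKM, with overlapping intervals and a log2 difference of -0.36. None of the 10 was called in untreated *Irf1*-/- BMDCs, where 1.26% of all genes were called higher and 3.52% lower, or in untreated *Irf3/7*-/- BMDCs, where 1.17% were called higher and 0.863% lower. The neutrophil sums here were 19810 FPKM in *Tmem173*-/- and 3996 FPKM in wild-type BMDCs, and their part was again not tested.

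In treated *Irf1*-/- BMDCs 4 of the 10 genes were lower than in treated wild-type BMDCs. *Slc2a1* was at 38.2 FPKM (27.5 to 48.3) against 88.4 FPKM (63.1 to 114), a log2 difference of -1.21 (SE 0.28). *Hk1* was at 30.4 against 68.6 FPKM (-1.17, SE 0.28), *Pfkl* at 13.6 against 31.0 FPKM (-1.18, SE 0.23) and *Pfkfb3* at 10.5 against 23.4 FPKM (-1.14, SE 0.24). Of all genes tested, 2.65% were called higher and 4.91% lower, beside 0 and 4 of the 10. The 10 were chosen with earlier results of these data known, so the counts describe the values. *Hk2* (42.4 against 45.1 FPKM) and *Hk3* (144 against 205 FPKM) had overlapping intervals. *Pfkp*, the platelet-type subunit, went the other way, at 343 FPKM (256 to 430) against 175 FPKM (131 to 219), apart but just under 2-fold. The T cell markers summed to 8.33 FPKM and 3 NK cell markers, nearly all from *Gzma*, to 8.43 FPKM in treated *Irf1*-/- BMDCs, against 32.0 and 329 FPKM in treated wild-type BMDCs; their part in the differences was not tested.

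In treated *Irf3/7*-/- BMDCs none of the 10 genes was called against treated wild-type BMDCs, where 4.61% of all genes were called higher and 2.69% lower. *Slc2a1*, at 166 against 88.4 FPKM, had intervals apart and a log2 difference of 0.91 (SE 0.28). *Hk2* was at 70.4 against 45.1 FPKM, *Pfkfb3* at 37.6 against 23.4 FPKM, *Pfkl* at 49.1 against 31.0 FPKM and *Pgk1* at 732 against 446 FPKM. These 4 had intervals that overlapped and log2 differences of 0.64 to 0.71. The median log2 difference was 0.53 over the 10 genes and -0.02 over all genes tested. The T cell markers summed to 105 FPKM and the NK cell markers to 901 FPKM in treated *Irf3/7*-/- BMDCs, and 4 basophil and mast cell markers to 140 FPKM against 42.9 FPKM; their part was not tested.

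**Figure D3:**
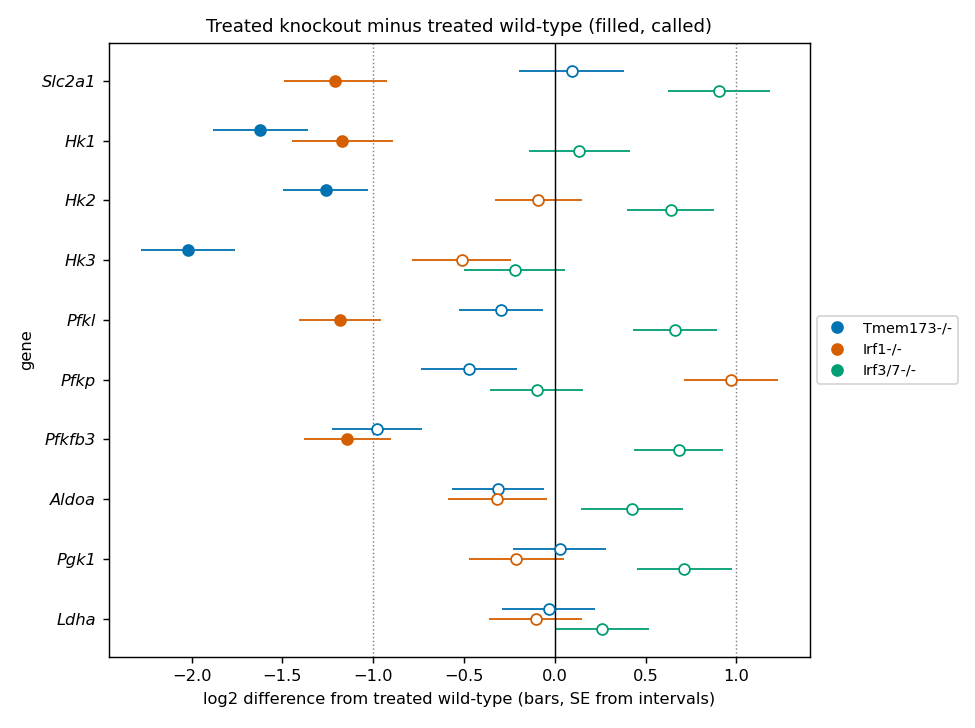
Log2 difference between treated knockout and treated wild-type BMDCs (horizontal axis) for each of the 10 genes; bars are SE from the authors' intervals, filled points are called and dotted lines mark 2-fold. The hexokinases lie to the left in *Tmem173*-/- BMDCs, *Slc2a1*, *Hk1*, *Pfkl* and *Pfkfb3* in *Irf1*-/- BMDCs, and 8 of 10 genes lie above 0 in *Irf3/7*-/- BMDCs without a call.

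The treated *Irf* knockouts were then compared with each other, a comparison added after the values were seen. *Slc2a1* was 4.34 times higher in treated *Irf3/7*-/- than in treated *Irf1*-/- BMDCs (166 against 38.2 FPKM, log2 difference 2.11, SE 0.27). *Pfkl* was 3.61 times higher (49.1 against 13.6 FPKM), *Pfkfb3* 3.57 times (37.6 against 10.5 FPKM) and *Hk1* 2.47 times (75.3 against 30.4 FPKM). *Pfkp* was lower, at 163 against 343 FPKM (log2 difference -1.07, SE 0.26). Thus 4 of the 10 genes were called higher and 1 lower, beside 6.62% and 3.22% of all genes. *Hk2* and *Pgk1* were higher with intervals apart but below 2-fold, and *Hk3*, *Aldoa* and *Ldha* had overlapping intervals. Since these genes were seen to differ before the comparison was made, the calls describe the values. The NK cell markers summed to 901 FPKM in treated *Irf3/7*-/- and 8.43 FPKM in treated *Irf1*-/- BMDCs, the T cell markers to 105 and 8.33 FPKM, and the basophil and mast cell markers to 140 and 53.0 FPKM, and their part was not tested.

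The families with several members were also summed, as a description of their make-up. The 3 hexokinase genes summed to 140 FPKM in untreated and 319 FPKM in treated wild-type BMDCs, to 90.2 and 91.5 FPKM in *Tmem173*-/-, to 112 and 217 FPKM in *Irf1*-/- and to 194 and 322 FPKM in *Irf3/7*-/- BMDCs. *Hk3* made up 48.7% of the sum in untreated and 64.3% in treated wild-type BMDCs, and 44.2% and 66.4% in *Irf1*-/- BMDCs. In *Irf3/7*-/- BMDCs its share was 54.9% and 54.7%. Treated wild-type and treated *Irf3/7*-/- BMDCs thus had sums of 319 and 322 FPKM, in which *Hk2* made up 14.2% and 21.9%. Among phosphofructokinase subunits, *Pfkp* made up 76.1% to 95.8% of the sum of *Pfkl*, *Pfkm* and *Pfkp*. The share of *Pfkl* was 3.80% in treated *Irf1*-/- and 22.9% in treated *Irf3/7*-/- BMDCs. No error was computed for these shares.

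**Figure D4:**
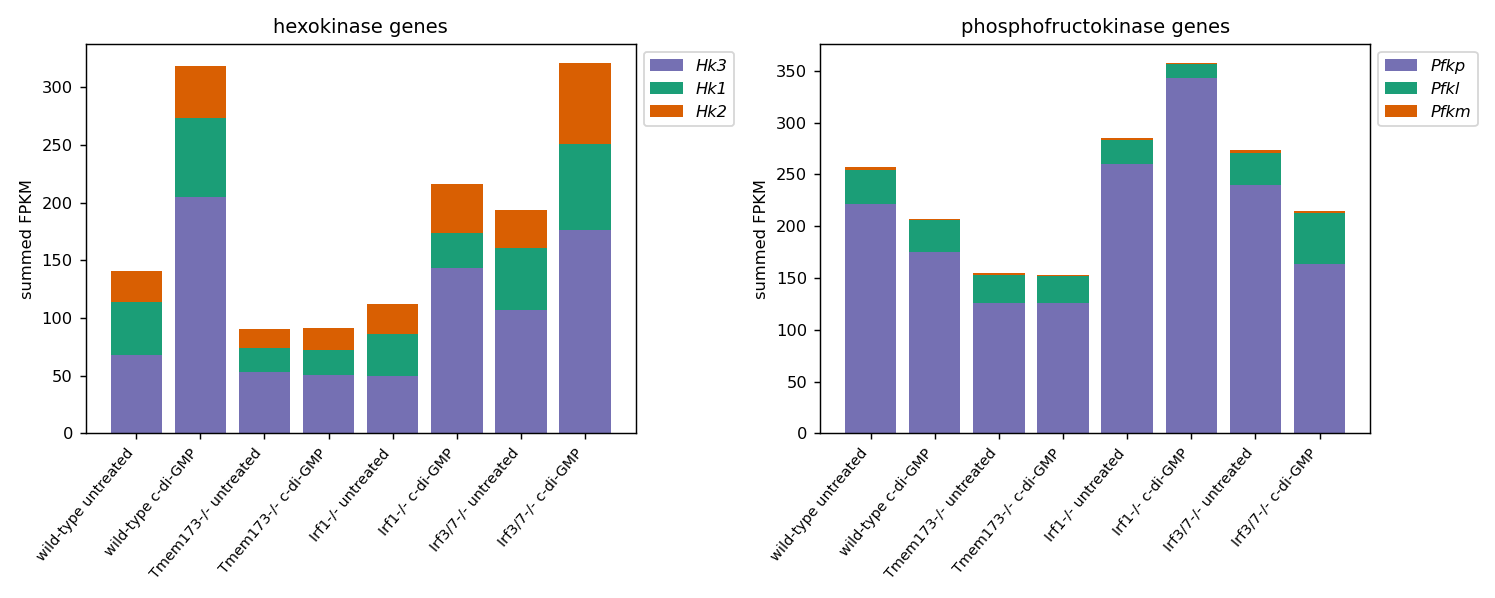
Summed FPKM of the hexokinase genes (left) and phosphofructokinase subunit genes (right) as stacked bars in the 8 conditions, without error bars. The hexokinase sum is 319 FPKM in treated wild-type and 322 FPKM in treated *Irf3/7*-/- BMDCs, with a smaller *Hk3* part in the latter, and *Pfkp* dominates the phosphofructokinase bars throughout.

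Other genes of glucose metabolism were counted from lists. Of 25 further glycolysis genes, 24 were in the table. In wild-type BMDCs 0 of the 19 tested were called higher with c-di-GMP and 4 lower, beside 10.5% and 9.96% of all genes. These were *Slc16a1*, a lactate and pyruvate transporter (11.3 to 1.61 FPKM, log2 change -2.74), the muscle enolase *Eno3* (14.2 to 3.15 FPKM), *Ldhb*, the lactate dehydrogenase subunit that favours pyruvate (3.51 to 1.02 FPKM), and the brain aldolase *Aldoc* (10.3 to 4.18 FPKM). *Slc16a1*, *Eno3*, *Ldhb* and *Aldoc* were also the 4 called lower in *Irf1*-/- BMDCs, where again 0 of 19 were called higher (all genes: 9.67% higher and 7.81% lower). In *Tmem173*-/- BMDCs no gene of the list was called, and only 0.046% of all genes were called higher and 0.0092% lower. *Irf3/7*-/- BMDCs had 3 of 20 called higher and 3 lower, beside 10.2% and 7.68% of all genes, though with a pseudocount of 1 FPKM only 1 was called lower. The genes named next were chosen after their values were seen. Those higher in *Irf3/7*-/- BMDCs were the glucose transporter *Slc2a3* (4.86 to 11.1 FPKM), the enolase *Eno2* (0.739 to 3.22 FPKM) and the lactate exporter *Slc16a3* (42.0 to 114 FPKM). *Slc16a3* was at 71.1 FPKM in treated wild-type and 24.4 FPKM in treated *Irf1*-/- BMDCs, where it was the only one of 19 called lower, beside 1 called higher, *Pfkfb4*. In treated *Irf3/7*-/- against treated *Irf1*-/- BMDCs 6 of 20 were called higher and 0 lower (6.62% and 3.22% of all genes), including *Tpi1* (481 against 154 FPKM), *Pkm* (943 against 334 FPKM) and *Eno1* (340 against 149 FPKM).

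The list of HIF regulators and HIF targets outside glycolysis held 19 genes. In wild-type BMDCs 4 of 18 tested were called higher with c-di-GMP (10.5% of all genes), and 2 with a pseudocount of 1 FPKM: the angiogenic factor *Vegfa* (4.0 to 24.4 FPKM, log2 change 2.58), the peptide hormone *Adm* (0.203 to 1.16 FPKM), the mitophagy receptor *Bnip3* (13.8 to 33.6 FPKM) and the collagen prolyl hydroxylase *P4ha1* (15.0 to 30.4 FPKM). *Myc* was called lower, from 44.1 to 9.03 FPKM. *Hif1a*, the oxygen-regulated HIF subunit, was at 65.0 and 124 FPKM in wild-type, 45.1 and 67.4 FPKM in *Tmem173*-/-, 46.3 and 73.7 FPKM in *Irf1*-/-, and 96.9 and 200 FPKM in *Irf3/7*-/- BMDCs, and of these changes only the last was called (log2 change 1.04, SE 0.28). HIF activity is mainly set by protein stability, which RNA does not show. No gene of the list was called in *Tmem173*-/- BMDCs, where only 0.046% of all genes were called higher and 0.0092% lower. In *Irf1*-/- BMDCs 3 of 17 were called higher and 1 lower (9.67% and 7.81% of all genes). Of the 3 called higher, 1 was called with a pseudocount of 1 FPKM. The 3 were *Vegfa* (2.998 to 6.55 FPKM), *Adm* (0.331 to 1.03 FPKM) and *Ndrg1* (11.4 to 32.4 FPKM). *Ndrg1*, chosen after its values were seen, was not called in wild-type BMDCs (18.2 to 34.6 FPKM). *Bnip3* (13.8 to 15.4 FPKM) and *P4ha1* (12.8 to 16.7 FPKM) were not called in *Irf1*-/- BMDCs. In *Irf3/7*-/- BMDCs 11 of 18 were called higher and 1 lower (10.2% and 7.68% of all genes), with *Vegfa* at 66.5 FPKM and *Bnip3* at 92.6 FPKM after treatment. The median log2 change of the list was 0.41 in wild-type BMDCs, 0.06 with *Tmem173* deleted, 0.12 with *Irf1* deleted and 1.31 in *Irf3/7*-/- BMDCs, where the medians over all genes tested were 0.00, -0.02, 0.00 and 0.00. Against treated wild-type BMDCs, 6 of 18 were called lower and 1 higher in *Tmem173*-/- (13.5% and 12.9% of all genes), 5 lower and 0 higher in *Irf1*-/- (4.91% and 2.65%), and 8 higher and 0 lower in *Irf3/7*-/- BMDCs (4.61% and 2.69%).

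**Figure D5:**
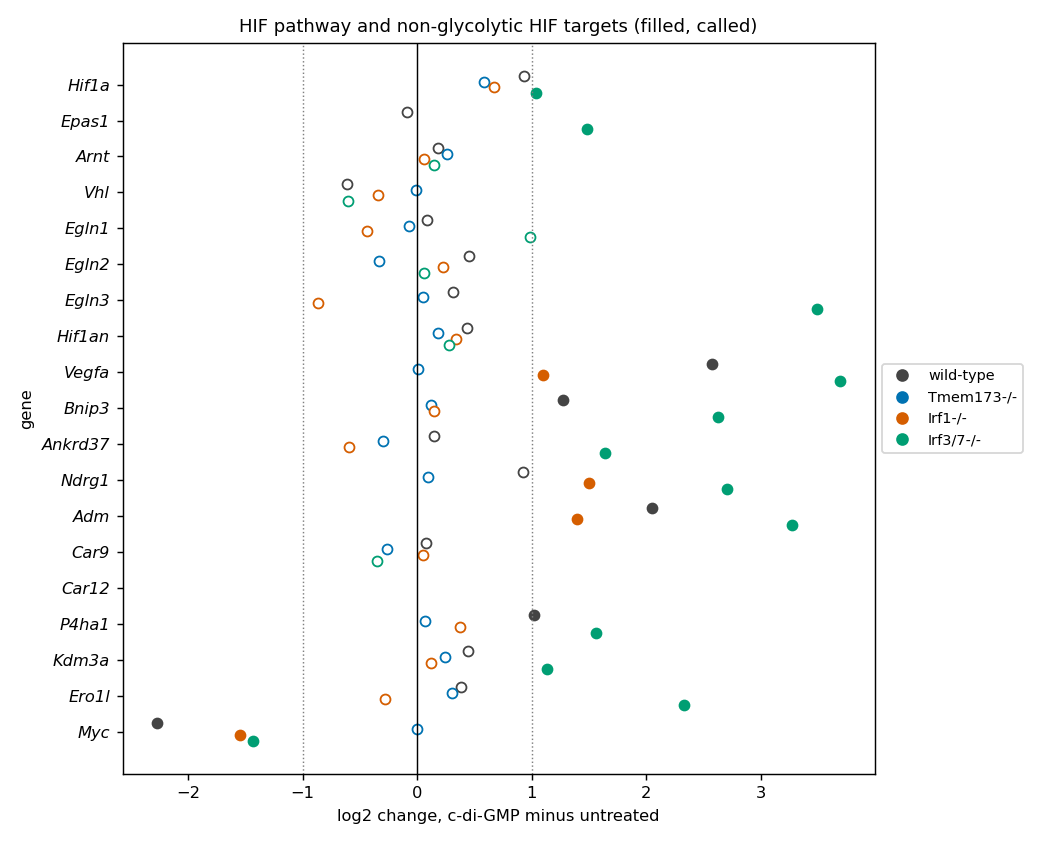
Log2 change with c-di-GMP (treated minus untreated, horizontal axis) of the genes of the HIF list tested in each of the 4 genotypes, without error bars; filled points are called and dotted lines mark 2-fold. The list median is 1.31 in *Irf3/7*-/- and 0.41 in wild-type BMDCs, and the *Tmem173*-/- points are all open.

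For each member that varied more than 2-fold, the 3 genes with the most similar profile were taken by Pearson's r of log2(FPKM + 0.1) over the 8 conditions, among 7382 genes with at least 10 FPKM in a condition. The conditions are combined values that share genotypes, and with 8 points many genes reach a high r. For *Pfkfb3* they were *Bnip3* (r = 0.983), *Vegfa* (r = 0.970) and *P4ha1* (r = 0.970), all from the HIF list above. For *Slc2a1* they were *Vps37b* (r = 0.960), *Niacr1* (r = 0.956) and *Ankrd37* (r = 0.952), and for *Pfkl* they were *Klhdc2* (r = 0.962), the glycolytic *Tpi1* (r = 0.955) and *Ankrd37* (r = 0.943). *Hk3* went with the interleukin receptor subunit *Il4ra* (r = 0.985), *Plac8* (r = 0.984) and the chemokine *Cxcl11* (r = 0.983). *Hk2* went with *Sec23b* (r = 0.990), *Runx3* (r = 0.986) and *Jun* (r = 0.982), and *Hk1* with *Ntng2* (r = 0.971), *Clip2* (r = 0.968) and *Tgm2* (r = 0.966). *Pfkp* went with *Aco1* (r = 0.978), *Pros1* (r = 0.973) and *Sulf2* (r = 0.965). No gene was shared between the hexokinases in these sets of 3.

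Exons of 5 members overlap an exon of a gene on the opposite strand, and the sources used here give no strand setting for Cuffdiff, though they name a strand-specific one for another program. Most bases were shared by *Pfkp* and *Pitrm1*, 748 bases or 5.58% of the exon bases of *Pfkp*, where *Pitrm1* was between 10.5 and 19.5 FPKM. The others covered 0.859% to 2.99% of the member's exon bases. A few related genes were looked up by symbol and were low. *Aldoart1*, a copy of *Aldoa*, was between 2.72 and 4.61 FPKM, and *Pgk2* was listed at 0. *Aldoart2* reached at most 0.560 FPKM and *Ldhal6b* 0.171 FPKM. Other copies of the members were not looked up. Reads of *Aldoa*, *Pgk1* and *Ldha* that also match copies may be split by the counting. In RefSeq (GRCm38.p6) the members span chr2:11471430-11554071 (*Pfkfb3*), chr4:119108745-119137330 (*Slc2a1*), chr6:82725025-82774454 (*Hk2*), chr7:126795234-126800994 (*Aldoa*), chr7:46842274-46855627 (*Ldha*), chr10:62268855-62379920 (*Hk1*), chr10:77986947-78009807 (*Pfkl*), chr13:55005985-55021475 (*Hk3*), chr13:6579874-6649060 (*Pfkp*) and chrX:106187100-106203699 (*Pgk1*), and FPKM counts their exons.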

How the data were processed

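Gene expression was measured by RNA-seq (stranded mRNA libraries) in BMDCs of 8 conditions, 2 samples each. The authors ran Cuffdiff and deposited 1 FPKM per gene and condition with the bounds of an interval. The submitters' processing notes give Cuffdiff 1.06 and the build mm9, but the loci in the table lie at GRCm38 positions; aligner and annotation are not given in the sources used here. Treated *Tmem173*-/- BMDCs were recognised by a column suffix alone. Another knockout's 3 value columns were not used.

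FPKM were compared as log2(FPKM + 0.1) in 10 comparisons plus 1 added after the values were seen. Genes with at least 1 FPKM in either condition and the status OK in both were tested, and a gene was called at more than 2-fold with intervals apart. The half-width of an interval was read as 2 standard deviations to derive standard errors. The calls were tested on simulated data. With values combined over replicates, no test over replicates was made; the q in 1 alternative rests on the intervals alone.

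The 10 members and all lists were chosen with earlier results of these data known. All 10 members are named. From other lists, up to 6 genes per list with the largest absolute log2 change among those called in wild-type BMDCs are named, plus *Hif1a*, and 3 similar genes per member that varied more than 2-fold; names outside this rule are marked as chosen after their values were seen. Positions and promoter sequences are from RefSeq and exon overlaps from GENCODE, both GRCm38. Python 3.11.15, numpy 2.4.6, pandas 2.3.3 and matplotlib 3.10.9 were used. The 8 alternatives tried are described in the closing section.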

Additional observations from a re-analysis of the deposited data

How the results depend on the processing

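The results were recomputed with 1 or 0.01 FPKM as pseudocount, with no minimum or one of 5 FPKM, a fold threshold of 1.5, division of each condition by its median, the fold change alone, and a q under 0.05 from the intervals with the 2-fold threshold. Among the counts of members called, those that moved by more than 1.5 times did so at the 1.5-fold threshold: 3 instead of 1 in treated against untreated *Irf1*-/- BMDCs (2 higher, 1 lower), 1 instead of 0 in treated *Irf3/7*-/- against treated wild-type BMDCs, and 3 instead of 1 in untreated *Tmem173*-/- against untreated wild-type BMDCs. For single members, 10 more calls were made at the 1.5-fold threshold and 1 more with median division, *Pfkfb3* in treated *Tmem173*-/- against treated wild-type BMDCs. No call of these 10 members was lost or reversed under the 8 alternatives. Of 110 counts over the other gene lists (5 lists, 11 comparisons, each direction), 10 fell and 0 grew by more than 1.5 times with a pseudocount of 1 FPKM, 6 fell with a minimum of 5 FPKM, 18 grew at the 1.5-fold threshold, 4 grew without a minimum, 1 grew with the fold change alone and 1 fell with median division. With the pseudocount of 1 FPKM, the citric acid cycle genes called lower went from 5 to 3 in wild-type and from 6 to 3 in *Irf3/7*-/- BMDCs, and the HIF list genes called higher from 4 to 2 in wild-type and from 3 to 1 in *Irf1*-/- BMDCs. Replicates could not be left out, because the values were combined by the authors. No paired analysis was possible because the table holds 1 value per condition. The 2-fold threshold sets which members are called, since the fold change alone gave the same member calls, and the spread between cultures is unknown.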

Other observations

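The pyruvate dehydrogenase and citric acid cycle list, which follows glycolysis in the mitochondrion, was lower with c-di-GMP for several members and higher for none. In wild-type BMDCs 5 of 24 tested genes were called lower (9.96% of all genes), and 3 with a pseudocount of 1 FPKM: fumarase *Fh1* (117 to 34.9 FPKM, log2 change -1.74), the isocitrate dehydrogenase subunit *Idh3a* (47.6 to 15.8 FPKM), malate dehydrogenase *Mdh2* (486 to 216 FPKM), the pyruvate dehydrogenase phosphatase *Pdp1* (6.40 to 2.90 FPKM) and the pyruvate carrier *Mpc2* (57.9 to 28.6 FPKM). In *Irf1*-/- BMDCs 4 of 24 (7.81% of all genes) and in *Irf3/7*-/- BMDCs 6 of 24 (7.68% of all genes) were called lower, and *Fh1*, *Idh3a* and *Mdh2* were among them in both. In *Tmem173*-/- BMDCs 0 of 24 were called (0.0092% of all genes called lower). The median log2 change of the list was -0.62 in wild-type, -0.54 in *Irf1*-/-, -0.68 in *Irf3/7*-/- and -0.10 in *Tmem173*-/- BMDCs, beside 0.00, 0.00, 0.00 and -0.02 over all genes tested.

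Of the 7 pentose phosphate genes, *Rpia* (29.1 to 14.2 FPKM) and transketolase *Tkt* (218 to 107 FPKM) were called lower in wild-type BMDCs, beside 9.96% of all genes, but only 1 of the pair with median division or a pseudocount of 1 FPKM. *Rpia* was called lower in *Irf3/7*-/- BMDCs (7.68% of all genes). None of the list was called in *Tmem173*-/- BMDCs (0.046% of all genes higher and 0.0092% lower) or in *Irf1*-/- BMDCs (9.67% and 7.81%). In the latter *Tkt* was at 235 and 128 FPKM, with intervals apart and a log2 change of -0.87. Of 9 gluconeogenesis and glycogen genes tested in wild-type BMDCs, the glycogen branching enzyme *Gbe1* was called higher (3.64 to 8.21 FPKM) and the gluconeogenic *Fbp1* lower (3.43 to 0.524 FPKM). Of all genes tested there, 10.5% were called higher and 9.96% lower. The call of *Gbe1* was lost with a pseudocount of 1 FPKM and that of *Fbp1* with a minimum of 5 FPKM. *Fbp1* was at 46.6 FPKM untreated and 27.9 FPKM treated in *Irf1*-/- BMDCs, against 0.120 and 0.0577 FPKM in *Tmem173*-/- and 5.34 and 2.45 FPKM in *Irf3/7*-/- BMDCs. Neutrophil, T cell and NK cell markers also differed between these genotypes, and their part was not tested.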
